A study of Arabidopsis thaliana with 30 samples.

Results

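The genes described here are calmodulin-like proteins (CML) and glutamate receptor-like channels (GLR) of Arabidopsis thaliana, measured in 5 sorted root cell types after 24 h at low or standard pH. Members were picked by gene symbol, in a study whose earlier results were known when the families were chosen. A probe set belonged to the group when it was paired with a single gene whose symbol was CML, CPK, CIPK, CBL, CNGC, ACA or CAX followed by a number, or GLR followed by a number with decimals. The rule itself reads no expression value, and it found 14 of 22810 probe sets, 1 for each of 14 genes, where 13356 genes in all had a probe set of their own. They fall in 2 of the 8 families, with 7 CML genes (CML23, CML30, CML37, CML38, CML41, CML42 and CML43) and 7 GLR genes (GLR1.4, GLR2.7, GLR2.8, GLR2.9, GLR3.3, GLR3.5 and GLR3.6). The other 112 annotated genes with a symbol of these families, among them all the CPK, CIPK, CBL, CNGC, ACA and CAX genes, were not analysed here. The values below therefore describe calcium sensors and channels of these CML and GLR families, and say nothing of the kinases, pumps and exchangers.

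Calcium ions act as a second messenger in plant cells, where a stimulus opens channels and a rise of cytosolic calcium is read by proteins that bind it. CML proteins are such sensors: they bind calcium through EF-hand loops and then bind other proteins. GLR proteins are cation channels related to the glutamate receptors of animal synapses, and several of them carry calcium in response to amino acids, wounding or microbial patterns. Transcripts of many CML genes are known to follow touch, wounding and other stresses.

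Plants were of the Columbia ecotype. Seedlings grew for 5 days at pH 5.7 and were then moved to medium of pH 4.6 or pH 5.7 with 3 mM DMG, both for 24 h, which made them 6 days old at harvest. Protoplasts were released from the roots and fluorescent ones were sorted from 5 reporter lines: Pet111::GFP for the columella root cap, pWER::GFP for the epidermis and lateral root cap, pCOR315.1::GFP for the cortex, pSCR::GFP for the endodermis and quiescent center, and pWOL::GFP for the stele. Each of the 10 groups held 3 arrays, and all cells, those at pH 5.7 included, went through transfer, digestion and sorting. Whether replicates are separate cultures is not stated, so the p-values rest on the spread among arrays, which may be technical.

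Array medians lay between 43.8 and 71.7 signal units, and the correlation of replicate arrays, over all probe sets, ran from 0.958 to 0.981. Of 29 listed marker entries, 11 were measured by a single-gene probe set. Of these 11 marker genes, 7 had their highest mean at pH 5.7 in the cell type of their label. The exceptions were the endodermis markers AT4G28100 and AGL42 and the stele marker LHW, highest in cortex, and the stele marker PHV, highest in columella. No measured stele marker was thus highest in stele, and GSO1 was the only endodermis marker highest in endodermis. Columella had a single measured marker, CR4. Epidermis pH 5.7 replicate 2 stood apart for several calmodulin-like genes. CML37 had a signal there of 2342, against 551 and 690.5 on the other arrays of the group. CML38 had 1242 against 368 and 365, and CML23 had 1189 against 403 and 541. The calls named below that change without this array are given with and without it. The shared swing was not confined to that array. CML37 and CML38 had their highest signal on the same array in 8 of 10 groups, CML38 and CML23 in 7, and CML37 and CML23 in 6. GLR2.7 and GLR2.8 did so in 5. What moved CML23, CML37 and CML38 together was not tested, and their results are not separate from each other.

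Signals are MAS5 intensities, and the level of one probe set cannot be set against that of another. Changes are log2 differences of signal plus a pseudocount of 11.9 from a limma fit to all 30 arrays and all 22746 non-control probe sets. A gene was called where the Benjamini-Hochberg adjusted p over all these probe sets was under 0.05. Folds are these changes on a linear scale, and they understate the ratio of signals near the pseudocount. In the plots of signals, 6 genes (CML23, CML37, CML38, CML42, CML43 and GLR3.3) lay above the pseudocount on all 30 arrays, GLR3.5 on 29, CML30 on 27 and CML41 on 26. GLR3.6 lay above it on 24, GLR1.4 and GLR2.8 on 21 each, GLR2.7 on 13 and GLR2.9 on 1. CML37, CML38, CML42 and GLR3.3 were above percentile 40 of their array on all 30 arrays, and GLR2.9 was above it on 0. GLR1.4, GLR2.7, GLR2.8, GLR2.9 and GLR3.6, 5 of the 7 GLR genes, never passed percentile 60.

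**Figure D1:**
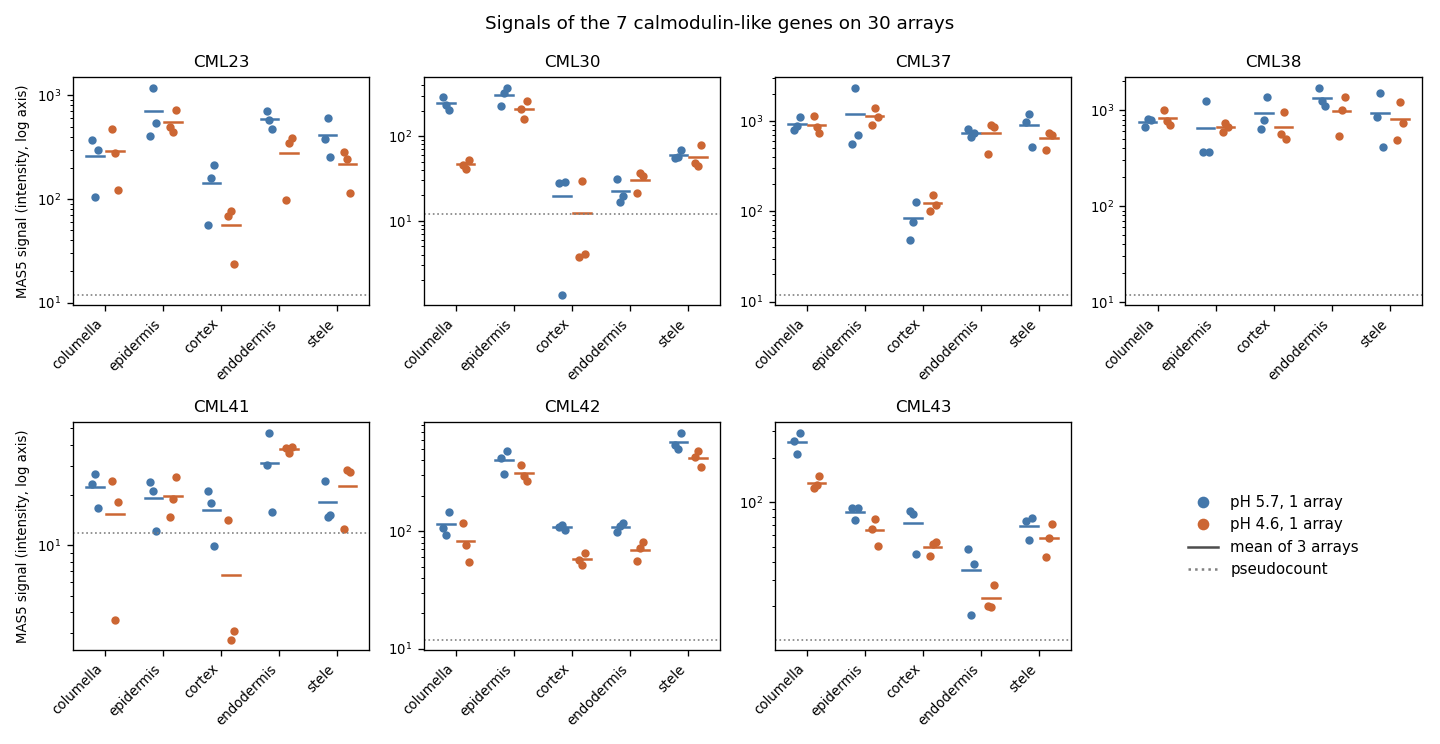
MAS5 signal (log axis) of the 7 calmodulin-like genes in each cell type, with 1 point per array, a bar for the mean of 3 arrays, blue for pH 5.7 and orange for pH 4.6; the dotted line is the pseudocount of 11.9. CML37 is lowest in cortex at both pH values, CML43 is highest in columella, and CML30 in columella falls from 205 or more at pH 5.7 to 52.2 or less at pH 4.6.

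The first question was where in the root each gene was high on the standard medium. CML genes were called different between the 5 cell types at pH 5.7 in 5 of 7 cases and GLR genes in 3 of 7, and 63.9% of all probe sets were called in this F test. The share of the 14 genes, 57.1%, was near that background. At pH 4.6, on other arrays, 11 of 14 were called, against 60.1% of all probe sets. By their log2 group means, 8 of the 14 genes were lowest in cortex at pH 5.7, and the share over all probe sets was not counted. Among them CML41, GLR1.4, GLR2.8 and GLR2.9 had no called difference between cell types at that pH. Array medians at pH 5.7 followed cell type, at 43.8 to 45.9 in cortex and 45.3 to 52.5 in epidermis. They were 55.7 to 59.2 in columella, 55.2 to 57.5 in endodermis and 58.4 to 64.7 in stele. The part of these medians in the cortex count was not tested. Against the mean of the other 4 cell types, cortex had 5 genes called lower and 0 called higher (limma; 1 further gene, GLR3.5, was higher at an unadjusted p under 0.05), where 35.1% of all probe sets were called, 20.2% lower and 14.9% higher. Columella had 4 called higher and 3 lower, where 49.5% of all probe sets were called, 29.4% higher and 20.1% lower. Without epidermis pH 5.7 replicate 2, GLR3.5 was also called lower in columella (limma adjusted p 0.0634 to 0.0489). Other settings gave that call too, among them quantile normalization (0.0205) and array weights (0.0331). Epidermis had 5 called higher and 1 lower, against 38.3%, with 15.9% higher and 22.4% lower. Without epidermis pH 5.7 replicate 2 the epidermis calls of CML23 (limma adjusted p = 0.299), CML37 (0.302) and GLR3.6 (0.0511) were lost. CML38 was then called lower (0.00344). Endodermis had 1 called higher and 3 lower, against 33.7%, with 17.2% higher and 16.5% lower. Without epidermis pH 5.7 replicate 2 its count was 7 in place of 4, with CML23 (adjusted p 0.088 to 0.0475), CML37 (0.174 to 0.0204) and CML38 (0.0555 to 0.0101) added. Stele had 2 called higher and 0 lower, against 24.9%, with 14.2% higher and 10.7% lower (limma, with 0 genes lower at an unadjusted p under 0.05). Without epidermis pH 5.7 replicate 2, CML37 was called higher in stele as well (limma adjusted p 0.0553 to 0.00326).

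CML37, a sensor known from wound and herbivore responses, gave the widest separation of cortex from the rest. At pH 5.7 its 3 cortex signals were 48.4, 75.7 and 126, and the lowest signal in any other cell type was 518, in stele. Cortex lay 3.28 ± 0.30 log2 units (SE) below the mean of the other 4, given as -3.28 in the plot of cell type differences (limma adjusted p = 6.8e-10), and at pH 4.6 the difference was -2.62 ± 0.30. Epidermis, columella, stele and endodermis followed each other without a called step, with neighbouring differences of 0.07, 0.12 and 0.19 log2. Columella (0.93) and epidermis (1.02) were called above the other 4, a mean that includes the low cortex. Compared pairwise, columella, epidermis, stele and endodermis had no called difference. The largest was 0.38 log2, epidermis over endodermis (limma adjusted p = 0.469). The columella and epidermis calls also depended on single arrays. Without columella pH 5.7 replicate 3 the columella adjusted p was 0.0734, and without epidermis pH 5.7 replicate 2 the epidermis adjusted p was 0.302. Without that array stele was called above the other 4 (0.0553 to 0.00326).

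CML42, known for a part in trichome branching and in herbivore defence, was high in stele and epidermis. At pH 5.7 its stele signals were 542, 495 and 690.2, and its epidermis signals were 417, 305 and 484. The other 3 cell types gave 92.4 to 146. Epidermis and stele each lay apart from those 3 without overlap. Stele was above the mean of the others by 1.82 ± 0.17 log2 (limma adjusted p = 2.97e-09), and epidermis by 1.18 ± 0.17. Stele and epidermis themselves did not differ past the threshold (0.52 ± 0.22 log2, limma adjusted p = 0.0806). The step from epidermis down to columella was 1.70 ± 0.22 log2 (limma adjusted p = 2.1e-07). On the same arrays the epidermis markers EXPA7 and EXPA18 were also high in stele, by 3.49 ± 0.37 and 2.49 ± 0.45 log2 over the other 4 (2.16e-08 and 0.000106), with a summed signal of 1485 to 3303. Their part in the stele level of CML42 was not tested.

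CML43, the close paralogue of CML42, had another pattern, with its maximum in the columella. Its columella signals at pH 5.7 were 258, 212 and 295, and no array of another cell type at that pH exceeded 92.1. Columella lay 1.85 ± 0.20 log2 above the other 4 (limma adjusted p = 6.15e-09) and endodermis -1.35 ± 0.20 below them (3.08e-06). Endodermis signals were 48.8, 17.6 and 38.3. The order was columella, epidermis, cortex, stele and endodermis, with called steps at its top (1.43 log2) and at its bottom (0.85 log2).

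CML30 was high in the outer cell types of the root tip. At pH 5.7 the epidermis gave 227, 327 and 375 and the columella 293, 233 and 205, which overlap. Stele gave 54.9, 57.4 and 68.3, endodermis 31.6, 16.8 and 19.5, and cortex 28.2, 1.34 and 28.8, partly under the pseudocount. The step from columella to stele was 1.82 ± 0.36 log2 (limma adjusted p = 0.000113), and that from stele to endodermis was 1.08 ± 0.36 (0.0347).

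CML23 had its lowest signals in cortex as well, at 55.8, 158 and 212, with 403 to 1189 in epidermis and 469 to 714 in endodermis. The cortex difference was -1.68 ± 0.42 log2 (limma adjusted p = 0.00233), or 0.0652 without cortex pH 5.7 replicate 1. The epidermis difference (1.13 ± 0.42, adjusted p = 0.0354) was lost under 7 of 40 alternative settings, among them the fit without epidermis pH 5.7 replicate 2 (0.299). It was also lost without columella pH 5.7 replicate 2 (0.0556), epidermis pH 5.7 replicate 3 (0.0659), cortex pH 5.7 replicate 1 (0.0535) and stele pH 5.7 replicate 3 (0.0517). No neighbouring cell types in its order differed past the threshold.

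CML38, a sensor known from wounding and low oxygen, was bright in all 5 cell types. Its endodermis signals at pH 5.7 were 1723, 1236 and 1100, and its lowest signals, 368 and 365, were in epidermis. The F test over the 5 cell types was not called (limma adjusted p = 0.127, or 0.00686 with array weights), while the single comparison of epidermis with endodermis was (-1.25 ± 0.43 log2, 0.0197). Without epidermis pH 5.7 replicate 2 the F test's adjusted p was 0.00693, with epidermis below the other 4 (0.00344) and endodermis above them (0.0101). CML41, which is known from plasmodesmata in immunity, had signals between 2.73 and 47.2. At pH 5.7 it was not called (limma F test, adjusted p = 0.51). At pH 4.6 it was, with endodermis at 38.0, 35.9 and 38.8 and cortex at 14.1, 2.73 and 3.1 (0.0034).

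**Figure D2:**
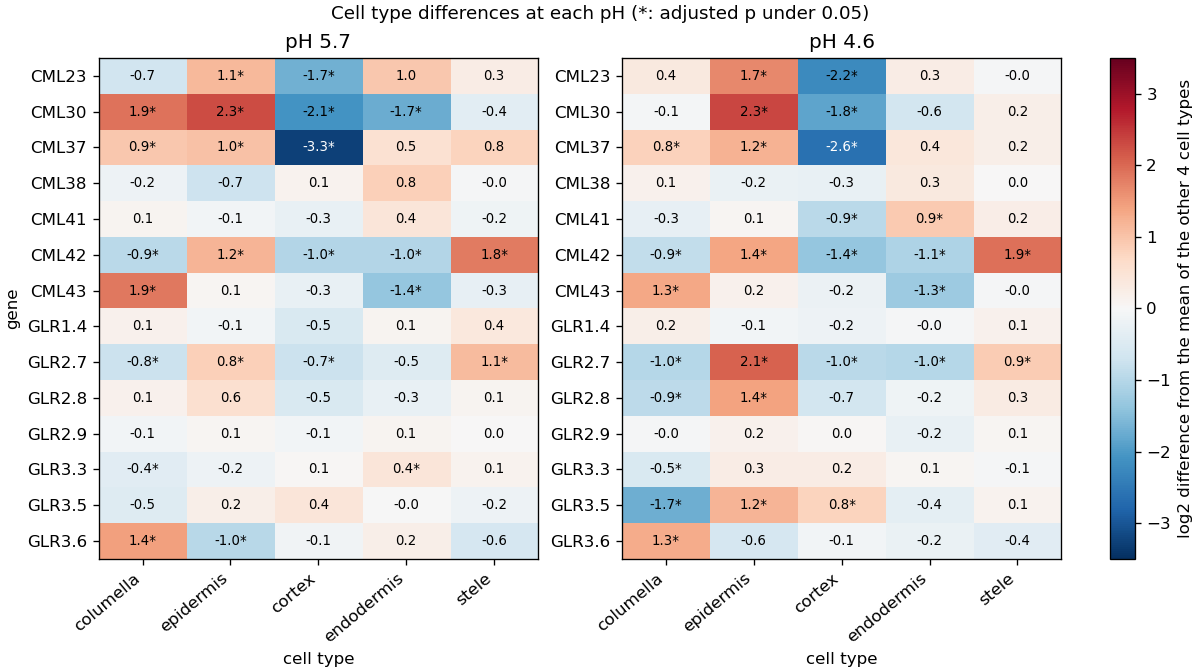
Log2 difference of each cell type from the mean of the other 4, at pH 5.7 (left) and pH 4.6 (right), for the 14 genes, with an asterisk where the limma adjusted p is under 0.05. Of 24 calls at pH 5.7, 20 were also calls at pH 4.6 in the same direction, and the cortex column of CML37 (-3.28 and -2.62) holds its extreme. The share of such repeats over all probe sets was not counted.

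Each pH value has its own arrays, but the reporter lines and the estimate of the spread are shared. Whether the cultures were separate is not stated, so the pattern at pH 4.6 is not an independent repeat. The 5 comparisons of a gene at a pH value use the same arrays, so its calls are not separate results. At pH 4.6 the genes called were 8 in columella, 7 each in epidermis and cortex, 4 in endodermis and 2 in stele, where 45.2%, 35.3%, 31.7%, 27.0% and 24.8% of all probe sets were called. Of the 24 calls of a cell type against the other 4 at pH 5.7, 20 were also called at pH 4.6 in the same direction, and 0 were called in the opposite one (limma). The remaining 4 were CML30 in columella and in endodermis, GLR3.3 in endodermis and GLR3.6 in epidermis. How often such calls recur at the other pH over all probe sets was not counted. All 7 CML genes had their highest log2 mean in the same cell type at both pH values. Of the 7 GLR genes, 2 did, and 57.2% of all probe sets did. For several GLR genes the highest mean rested on signals near the pseudocount. For CML23 and CML37 the epidermis maximum at pH 5.7 rested on epidermis replicate 2. On the other epidermis arrays CML37 had 551 and 690.5, against 786 to 1106 in columella. CML23 had 403 and 541 on them, against 469 to 714 in endodermis. CML38 and CML41 had no called difference between cell types at pH 5.7.

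**Figure D3:**
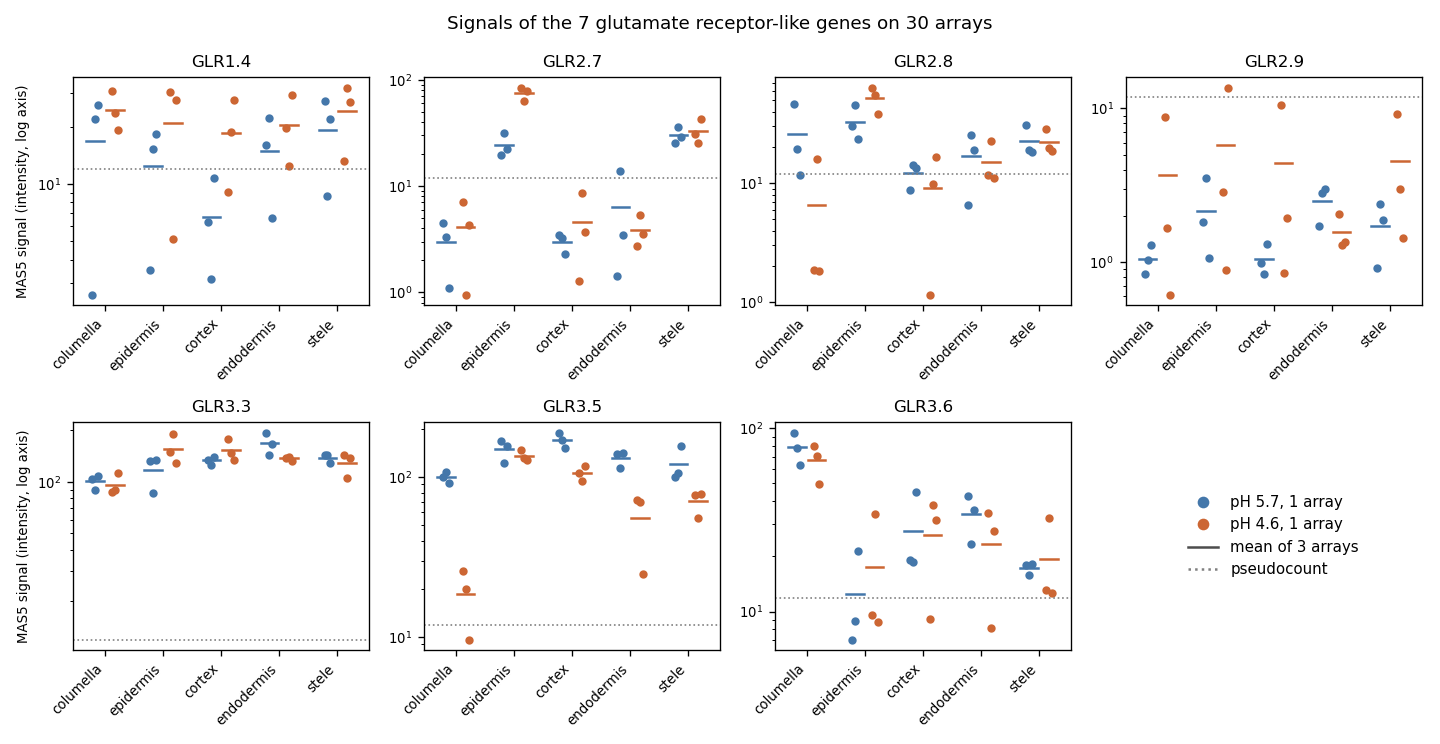
MAS5 signal (log axis) of the 7 glutamate receptor-like genes in each cell type, drawn as for the calmodulin-like genes. GLR3.5 in columella falls from 92.4 or more at pH 5.7 to 25.8 or less at pH 4.6, GLR2.7 in epidermis rises from 31.2 or less to 62.4 or more, and the signals of GLR2.9 lie almost all under the pseudocount of 11.9.

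Among the channels, GLR3.6, which with GLR3.3 carries wound signals between leaves, was highest in columella. Its columella signals at pH 5.7 were 94.8, 78.1 and 63.4, and no array of another cell type at that pH exceeded 44.9. Columella lay 1.45 ± 0.29 log2 above the other 4 (limma adjusted p = 0.000125), and 1.31 ± 0.29 at pH 4.6. Its epidermis signals at pH 5.7 were 7.02, 8.86 and 21.4, and the epidermis call (-0.96 ± 0.29, adjusted p = 0.00927) was lost without epidermis pH 5.7 replicate 1 (0.0802) or replicate 2 (0.0511).

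GLR3.3, which is also known from root gravitropism, was the most even of the called genes, with signals between 85.8 and 194 on all 30 arrays. At pH 5.7 columella gave 104, 90.0 and 108 and endodermis 194, 143 and 166. Columella lay -0.41 ± 0.15 log2 from the mean of the others (limma adjusted p = 0.0208), and -0.52 ± 0.15 at pH 4.6 (0.004). The columella call at pH 5.7 was lost without columella pH 5.7 replicate 2 (0.121). The endodermis call (0.43 ± 0.15, adjusted p = 0.0231) was lost without endodermis pH 5.7 replicate 1 (0.172) or replicate 3 (0.0681) and with equal array medians (0.0902). The F test at pH 5.7 (0.0236) was lost without columella pH 5.7 replicate 2 (0.0757), endodermis pH 5.7 replicate 1 (0.0959) or endodermis pH 5.7 replicate 3 (0.0525).

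GLR2.7, GLR2.8 and GLR2.9 are direct neighbours on their chromosome, and channels of this clade are known for calcium entry in response to microbial patterns. GLR2.7 lay above the pseudocount on every epidermis and stele array, at 19.4, 31.2 and 22.5 in epidermis and 25.6, 36.3 and 28.6 in stele at pH 5.7. In the other 3 cell types at that pH, 1 endodermis array reached 13.9 and the others gave 1.09 to 4.46. As for CML42, the epidermis markers were high in stele on these arrays too. GLR2.8 had its highest signals at pH 5.7, 46.5 and 45.2, in columella and epidermis, with no called difference between cell types (limma F test, adjusted p = 0.187). GLR2.9 had signals between 0.61 and 13.7 and cannot be ordered. GLR1.4, an amino acid-gated channel, had signals between 2.62 and 32.0 and no called difference at either pH (0.515 and 0.942).

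The second question was how low pH changed these genes. Averaged over the 5 cell types, 6 of 14 were called in limma, 5 lower and 1 higher, where 30.5% of all probe sets were called, 13.7% lower and 16.8% higher. The calls were for CML23, CML30, CML42, CML43 and GLR3.5, which fell, and GLR2.7, which rose. The CML30 mean call was lost with a pseudocount of 1 (0.119). The median mean change was -0.45 log2 over the 7 CML genes and 0.03 over the 7 GLR genes, against -0.01 over all probe sets. CML42, CML43 and GLR3.5 had a change below 0 in all 5 cell types (3 of 14, against 9.51% of all probe sets), and GLR1.4 a change above 0 in all 5 (1 of 14, against 14.6%).

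**Figure D4:**
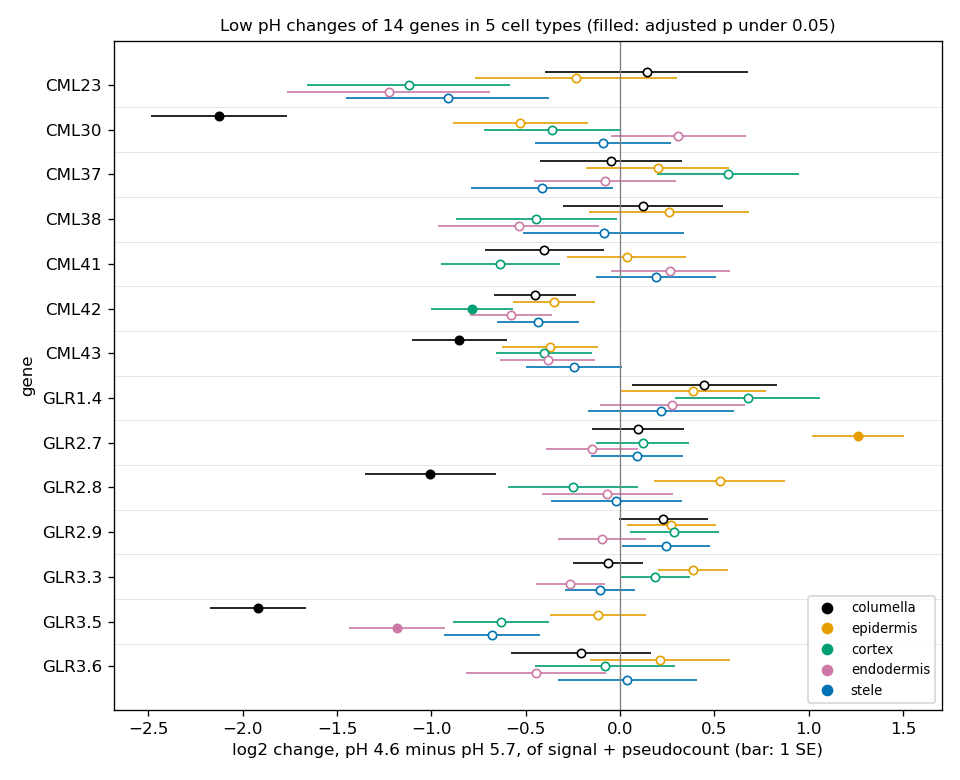
Log2 change at pH 4.6 relative to pH 5.7 (bars: 1 SE of the limma fit) for the 14 genes, with a point for each cell type, filled where the adjusted p is under 0.05. CML30, GLR3.5, GLR2.8 and CML43 are filled in columella, GLR2.7 in epidermis, CML42 in cortex and GLR3.5 in endodermis; no point is filled in stele.

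GLR3.5, a channel with a form known to reach mitochondria, had a mean change of -0.91 ± 0.11 log2 (SE, 15 arrays per pH, limma adjusted p = 3.89e-07). In columella it went from 99.4, 108 and 92.4 at pH 5.7 to 25.8, 19.9 and 9.57 at pH 4.6, a log2 change of -1.92 ± 0.25 (2.96e-06). In endodermis it went from 139, 114 and 142 to 71.6, 70.0 and 24.8, a change of -1.18 ± 0.25 (0.0025). The signals of the pH values did not overlap in either cell type. The endodermis adjusted p was 0.108 in a fit to the 6 endodermis arrays alone. On those arrays the summed endodermis markers lay between 7272 and 7560 at pH 5.7 and between 3265 and 6186 at pH 4.6. The summed cortex markers lay between 159 and 225 and between 69.9 and 112. The part of these shifts was not tested.

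In cortex GLR3.5 had 190.0, 171 and 152 at pH 5.7 and 106, 94.9 and 117 at pH 4.6, and in stele 101, 106 and 156 against 77.7, 55.2 and 78.3. The signals did not overlap in these cell types either, but the changes of -0.63 and -0.68 ± 0.25 log2 missed the threshold (limma adjusted p = 0.109 and 0.134). The cortex fall was called with a pseudocount at the median (0.0411), array weights (0.0425) and the 6 cortex arrays alone (0.0458). Leaving out endodermis pH 4.6 replicate 3 gave that call too (0.0444). In epidermis the change was -0.12 ± 0.25, with 149, 131 and 128 at pH 4.6 and 167, 123 and 157 at pH 5.7, which overlap. The 5 responses differed from each other (limma interaction F test, adjusted p = 0.0106, and at most 0.0403 over 41 alternatives). At pH 5.7 the F test between cell types was not called for GLR3.5 (0.124), with group means from 99.9 to 171. It was called under 5 alternatives: equal array medians (0.00685), quantile normalization (0.023), array weights (0.0336), a pseudocount at the median (0.0355) and without endodermis pH 4.6 replicate 3 (0.0379). Columella alone against cortex was called as well (-0.71 ± 0.25 log2, 0.024). At pH 4.6 the group means ran from 18.4 in columella to 136 in epidermis, and the cell types differed (4.43e-08).

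CML30 also fell in columella. It went from 293, 233 and 205 at pH 5.7 to 46.1, 40.5 and 52.2 at pH 4.6, 4.36-fold lower, a log2 change of -2.13 ± 0.36 (limma adjusted p = 9.2e-05). The call held under all 42 alternatives. In epidermis, where its level at pH 5.7 was similar, it had 208, 161 and 262 against 227, 327 and 375, a change of -0.53 ± 0.36 (0.488). In stele, endodermis and cortex its changes were -0.09, 0.31 and -0.36 ± 0.36 log2. The 5 responses differed (limma interaction F test, adjusted p = 0.0143). That call was lost with a pseudocount of 1 (0.262), without columella pH 5.7 replicate 1 (0.0561) and with a replicate block within cell type (0.0719). At pH 4.6 columella no longer lay apart from the other 4 (-0.06 ± 0.28 log2, adjusted p = 0.886). Signals of the epidermis markers EXPA7 and EXPA18, summed, were 19.4 to 81.0 in the pH 5.7 columella arrays and 20.6 to 50.0 in the pH 4.6 columella arrays, against 2809 to 8896 in epidermis at pH 5.7. In the same columella arrays the columella marker CR4 rose, with signals between 62.0 and 97.5 at pH 5.7 and between 166 and 205 at pH 4.6 (log2 change 1.05 ± 0.30, limma adjusted p = 0.0149). The summed LHW and PHV, listed as stele markers but not highest in stele here, lay between 549.9 and 730.1 at pH 5.7 and between 800.1 and 825 at pH 4.6, without overlap. The part of these shifts in the columella falls of CML30, CML43, GLR2.8 and GLR3.5 was not tested.

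CML43 fell in columella as well, where it was highest. Its signals went from 258, 212 and 295 to 125, 130.0 and 150.2, without overlap, 1.81-fold lower (log2 change -0.85 ± 0.25, limma adjusted p = 0.021). The call was lost with a pseudocount of 1 (0.0569) and without columella pH 4.6 replicate 1 (0.0746), pH 4.6 replicate 2 (0.0637), pH 5.7 replicate 1 (0.059) or pH 5.7 replicate 3 (0.0993). In the other 4 cell types its changes lay between -0.24 and -0.40 and were not called. The mean change was -0.45 ± 0.11 (0.00267), and no difference between the 5 responses was called (interaction adjusted p = 0.733). At pH 4.6 columella still lay 1.35 ± 0.20 log2 above the other 4.

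CML42 was called lower in cortex alone among the 5 cell types, and its changes in the other 4 were below 0 and not called. In cortex it had 109, 113 and 102 at pH 5.7 and 56.5, 51.4 and 65.6 at pH 4.6, without overlap, a log2 change of -0.78 ± 0.22 (limma adjusted p = 0.0141). That call was lost without cortex pH 4.6 replicate 2 (0.0611) or cortex pH 5.7 replicate 2 (0.0564). In endodermis (99.1, 109.7 and 117 against 55.7, 71.9 and 80.7) and stele (542, 495 and 690.2 against 428, 482 and 355) the signals did not overlap, and the changes were -0.58 and -0.44 ± 0.22 (0.0863 and 0.292). In columella and epidermis they overlapped, at -0.45 and -0.35. Without columella pH 4.6 replicate 1 the columella fall was called as well (limma adjusted p = 0.0379, against 0.187 with it). The mean change of -0.52 ± 0.10 (0.000117) was called under all 41 alternatives, and no difference between the responses was called (interaction adjusted p = 0.83).

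In the cortex arrays of this comparison, the summed signal of 3 endodermis markers was 1363 to 3223 at pH 5.7 and 734 to 1062 at pH 4.6. The summed cortex markers were 6896 to 7894 and 2642 to 3871. The epidermis markers, of a cell type where CML42 was high, summed to 37.6 to 212 at pH 5.7 and 15.8 to 56.3 at pH 4.6. Of the listed stele markers, LHW had its highest mean at pH 5.7 in cortex itself, and PHV had cortex means of 15.6 and 4.98. The part of these shifts in the cortex result was not tested. In bulk RNA of sorted cells, fewer cells of a type and less RNA per cell cannot be told apart.

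CML23 had a mean change of -0.67 ± 0.24 log2 (limma adjusted p = 0.0339). Over 41 alternatives the adjusted p ran from 0.0122 to 0.0699, and 13 lost the call, among them the fit without epidermis pH 5.7 replicate 2 (0.0626). In endodermis its signals went from 714, 573 and 469 to 98.2, 349.8 and 388 without overlap (-1.23 ± 0.54, 0.15). The 98.2 came from endodermis pH 4.6 replicate 1, where CML37 (435) and CML38 (534) also had the lowest signals of their group. In cortex it had 55.8, 158 and 212 against 67.9, 76.3 and 23.7, which overlap (-1.12 ± 0.54, 0.2, or 0.0259 with array weights). In stele the change was -0.91 ± 0.54 (0.397), and in columella and epidermis the changes were 0.14 and -0.23. CML37, CML38 and CML41 were called in no low pH comparison of the main fit, with mean changes of 0.05 ± 0.17, -0.14 ± 0.19 and -0.11 ± 0.14 log2. With array weights, the cortex change of CML41 was called (limma adjusted p = 0.0489, against 0.22 without weights).

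GLR2.7 gave the only called rise of the main fit, in epidermis. Its signals there were 19.4, 31.2 and 22.5 at pH 5.7 and 84.4, 62.4 and 78.0 at pH 4.6, without overlap, a log2 change of 1.26 ± 0.24 (limma adjusted p = 0.0015). The call was lost with a pseudocount of 1 (0.14) and in a fit to the 6 epidermis arrays alone (0.0744). On the same arrays the epidermis markers fell, EXPA7 from a mean of 3468 to 925 (adjusted p = 0.018) and EXPA18 from 2179 to 389 (0.0125), and the summed cortex markers lay between 161 and 343 at pH 5.7 and between 91.3 and 133 at pH 4.6. The part of these shifts was not tested. In stele, where its level at pH 5.7 was similar, it had 25.6, 36.3 and 28.6 against 31.0, 25.6 and 43.0, a change of 0.09 ± 0.24. In columella, cortex and endodermis it was near or under the pseudocount at both pH values. The interaction (limma adjusted p = 0.0398) was lost under 20 of 40 alternatives and the mean rise (0.28 ± 0.11 log2, 0.049) under 28 of 40. At pH 4.6 epidermis lay 2.07 ± 0.19 log2 above the other 4, against 0.85 ± 0.19 at pH 5.7.

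Its neighbour GLR2.8 had 30.0, 45.2 and 23.6 in epidermis at pH 5.7 and 63.7, 55.7 and 38.0 at pH 4.6, which overlap (0.53 ± 0.35 log2, limma adjusted p = 0.465). In columella it went from 46.5, 19.4 and 11.7 to 1.88, 16.1 and 1.84. Those signals also overlap and lie around the pseudocount, and the call (-1.01 ± 0.35, adjusted p = 0.049) was lost under 26 of 41 alternatives. At pH 4.6 GLR2.8 differed between cell types (F test, adjusted p = 0.000236), with epidermis 1.42 ± 0.27 log2 above the other 4. GLR3.3, GLR3.6, GLR1.4 and GLR2.9 were called in no low pH comparison of the main fit. Their mean changes were 0.03 ± 0.08, -0.10 ± 0.17, 0.40 ± 0.17 and 0.19 ± 0.10 log2. The mean rise of GLR1.4 (limma adjusted p = 0.0806) was called with array weights (0.0342) and without epidermis pH 4.6 replicate 2 (0.0255).

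By cell type, columella had 4 of 14 genes called, all lower (CML30, CML43, GLR2.8 and GLR3.5), where 14.6% of all probe sets were called, 7.65% lower and 7.00% higher. Without columella pH 5.7 replicate 1 the count was 2. Epidermis had 1 called, GLR2.7, which was higher, where 6.54% of all probe sets were called, 4.42% higher and 2.12% lower. Cortex had 1 called, CML42, which was lower, where 13.0% were called, 7.98% higher and 4.99% lower. Endodermis had 1 called, GLR3.5, which was lower, where 11.2% were called, 6.47% higher and 4.76% lower. In cortex the count ranged from 0 to 2 over fits without single arrays: it was 0 without cortex pH 4.6 replicate 2 or pH 5.7 replicate 2, and 2 without endodermis pH 4.6 replicate 3. Stele had 0 called in limma, with 1 gene, GLR3.5, at an unadjusted p under 0.05, where 4.64% of all probe sets were called, 2.79% higher and 1.85% lower. Signals that did not overlap between pH values were lower for 3 genes in columella, 2 in cortex, 4 in endodermis and 2 in stele, and higher for 1 in epidermis. No gene of the 14 had higher separate signals in the other 4 cell types, or lower ones in epidermis. Among all probe sets, separate lower signals were found for 17.4% in columella, 7.84% in epidermis, 13.4% in cortex, 12.9% in endodermis and 8.29% in stele. Separate higher signals were found for 16.3%, 12.1%, 17.2%, 12.9% and 13.7% in the same order. Calls for a difference between the 5 responses were made for 3 of 14 genes, GLR3.5, CML30 and GLR2.7, against 8.25% of all probe sets.

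A pair of related genes fell outside the rule because their annotated symbols differ. AT1G76640, which the annotation also lists as CML39, lies directly beside CML38. Its signals at pH 5.7 were 1783, 2305 and 3733 in cortex and 2218, 1692 and 1640 in endodermis, against 439, 491 and 509.6 in columella. Cortex lay 1.59 ± 0.35 log2 above the other 4 (limma adjusted p = 0.000505) and endodermis 1.05 ± 0.35 above (0.0191). Epidermis pH 5.7 replicate 2 had 1394 for AT1G76640, against 303 and 239. AT1G76640 shared its highest array with CML38 in 9 of 10 groups, and with CML37 in 9. Its mean low pH change was -0.49 ± 0.20 log2 (0.0606). ATGLR1.2 had signals between 19.5 and 64.1 and no called difference of pH or cell type.

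Of the other calcium signalling genes on a fixed list, those measured as single-gene probe sets were 15 IQD genes, whose proteins bind calmodulin at the microtubules and membranes. At low pH, 6 of the 15 were called lower and 1 higher in the mean response, against 13.7% and 16.8% of all probe sets. The called falls were for IQD16, IQD22, IQD28, IQD30, IQD31 and iqd32, and the rise was for IQD18. IQD31 had the largest fall in columella, from a mean of 625 to 286 (log2 change -1.08 ± 0.23, limma adjusted p = 0.00117), and IQD28 in cortex went from 249.9 to 117 (-1.02 ± 0.26, 0.00719). IQD19 differed in its response between cell types (interaction adjusted p = 0.00906), with a fall in stele from 582 to 297 (-0.95 ± 0.28, 0.0439). At pH 5.7, 12 of the 15 differed between cell types, against 63.9% of all probe sets.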

How the data were processed

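Gene expression was measured on 30 Affymetrix arrays, in 10 groups of 3 (5 sorted cell types, pH 4.6 or pH 5.7), with groups and replicate numbers taken from the labels. The deposited table holds a linear intensity for each probe set, made by the authors with MAS5 per the submitters' processing notes; no version or genome build is given in the sources used here. Per the labels' protocols, RNA was amplified in a two-cycle protocol before hybridisation, and the effect of this on weak signals was not tested. The trimmed mean of every deposited array was 250.0.

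Of 22810 probe sets, 64 controls were set aside and 22746 were tested without a filter on low signals; 13 of the 14 genes would pass a filter at percentile 40 on at least 3 arrays. A table of the platform paired 13513 probe sets with a single gene, 503 with several, and did not list the rest; 13436 of the first matched the TAIR10.1 annotation by gene ID, which gave symbols and the order of neighbouring genes only. Signals were transformed as log2 of signal plus 11.9, percentile 25 of all values. A limma 3.58.1 model (R 4.3.3) with a mean per group, an intensity trend and 20 residual degrees of freedom gave contrasts of pH within cell types, their mean, the interaction F test, and cell types at each pH. The script was tested on simulated data.

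Pairing by replicate number was checked: deviations of same-numbered arrays of a cell type correlated above 0.1 in 8 of 15 pairs and not in every pair, so the arrays were not treated as paired. The number of arrays limits the precision. Members, lists and naming rule were all chosen with earlier results of these data known. That rule took called genes with the largest changes, the smallest interaction p-values and the widest ranges between cell types, plus a list of genes; it named 9 of the 14, and the other 5 are described because each member is accounted for. Of the fixed calcium list, 1 probe set, ATCRT1, was left out after matching because its annotation does not name a calreticulin. The alternatives tried were equal array medians, quantile normalization, pseudocounts of 1 and 55.3, filters at percentile 40 and 60, replicate blocks, robust moderation, no trend, array weights, single cell type fits and leaving out each array.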

Additional observations from a re-analysis of the deposited data

Results flagged for a closer look

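Among the 14 genes, 3 were singled out because their low pH responses differed between the 5 cell types by the test of that difference, with limma adjusted p = 0.0106 for GLR3.5, 0.0143 for CML30 and 0.0398 for GLR2.7. For GLR3.5 the log2 changes ran from -1.92 in columella to -0.12 in epidermis, and for CML30 from -2.13 in columella to 0.31 in endodermis. For GLR2.7 they ran from -0.15 in endodermis to 1.26 in epidermis, at signals near the pseudocount in all cell types but epidermis and stele.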

How the results depend on the processing

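Over 42 alternative settings, none of the 48 called results on single genes was reversed. The F tests among them have no sign and could not reverse, so this holds for the other results only. Of the 48, 30 kept their call in every setting that measured them, and 120 of 1931 comparisons lost it. The counts of called genes stayed within 1.5 times in 517 of 532 comparisons. For low pH in columella the count of 4 ranged from 2 to 4 over fits without single arrays. In epidermis the count of 1 was 0 with a pseudocount of 1, with a filter at percentile 60, which removes GLR2.7, and with the 6 epidermis arrays alone. In cortex the count of 1 was 2 with a pseudocount at the median of all values and with the 6 cortex arrays alone. It was 4 with array weights, and 0 to 2 without single arrays. GLR3.5 was the gene added in the first of these settings, and GLR3.5, CML23 and CML41 were added with array weights. In endodermis the count of 1 was 0 with its 6 arrays alone. The count of 3 for a difference in response was 1 with a pseudocount of 1, 1 with a replicate block within cell type, and 1 to 3 without single arrays. The count of 4 for endodermis against the others ranged from 3 to 7 without single arrays, with 7 without epidermis pH 5.7 replicate 2. With a replicate block common to all groups every count stayed within 1.5 times; the numbers are not shown to pair the arrays, and 13 of 30 arrays correlated best with their own number. Equal array medians shifted the median change of all probe sets by -0.12 in epidermis, -0.10 in cortex and -0.11 log2 in stele, and no call on these genes changed direction. Signals near the pseudocount limit what can be said of CML41, GLR1.4, GLR2.7, GLR2.8 and GLR2.9, and of GLR3.6 outside columella. GLR2.7, the gene of the only called rise in the main fit, lay above the pseudocount on 13 of 30 arrays.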
